A study of Mus musculus with 6 samples.

Results

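Lysosomal genes and the genes of the vacuolar proton pump (V-ATPase) were followed in mature CD8 thymocytes of mice that lacked Tcf1 and Lef1, lacked Tcf1 alone, or were wild type. The members were the 26 rows of the expression table whose symbol starts with Atp6 and 29 listed lysosomal enzymes and membrane proteins, 55 of the 16383 rows. The sequenced cells, 2 libraries per genotype, had been sorted as CD8-positive with high surface TCRβ and without CD69 or CD24. The 3 groups were double-deficient (DKO, genotype Tcf1-/-Lef1-/-), Tcf1-deficient (Tcf1 KO, genotype Tcf1-/-) and wild type (WT). The genotype labels give only these alleles, while the design text says that deletion was by CD4-Cre, a recombinase expressed under Cd4 regulatory sequences from the thymic stage that carries both co-receptors. Which alleles were conditional and which germline is not given in the sources used here. No label tells whether the 2 libraries of a genotype are from different mice; the p-values thus describe the spread among these libraries, and that spread may be technical. Levels are FPKM, fragments scaled to transcript length and to the mapped fragments of the library.

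The lysosome is the acidic compartment in which cells break down protein, glycans and lipids. The V-ATPase acidifies it: the V1 part, in the cytosol, splits ATP, and the V0 part, in the membrane, carries the protons. Many lysosomal genes respond to the transcription factors TFEB and TFE3, which bind E-box elements around the core CACGTG in their promoters. Tcf1 and Lef1 are HMG-box factors of T cell development that bind motifs such as CTTTGAT and CTTTGAA.

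As a check on the genotype, Lef1 was at 130.9 and 130.2 FPKM in DKO libraries, 308.7 and 311.5 in Tcf1 KO libraries, and 316.1 and 281.9 in WT libraries. These values are per gene, so exons that a deletion leaves in place would also count. They therefore do not measure intact transcript, and the source of the Lef1 level left in DKO was not tested. The table ends alphabetically at Pcsk5, so Tcf7, the gene of Tcf1, and later genes are not analysed here. The 10 T cell and CD8 markers of the sorted cells were detected in every library. They summed to 4712 to 4888 FPKM in DKO, 4716 to 4915 in Tcf1 KO and 4158 to 4454 in WT. In DKO against WT limma called 40% of them, beside 49.5% of all tested genes. Cd3e and Cd3g rose (adjusted p = 0.00616 and 0.00171), while Cd3d and Cd5 fell (0.0275 and 0.00552). Cd3d was not called under median scaling (0.102). Cd4, the co-receptor of the other mature lineage, was at 129.0 and 63.7 FPKM in DKO libraries, 15.1 and 6.27 in Tcf1 KO libraries, and 1.41 and 0.65 in WT libraries, without overlap. It rose by 5.52 ± 0.48 on the log2 scale in DKO against WT (adjusted p = 0.000516). RNA of Cd69, whose protein the sorted cells lacked at the surface, was at 27.2 and 27.1 FPKM in DKO libraries, 33.2 and 31.6 in Tcf1 KO libraries, and 39.4 and 35.96 in WT libraries, and fell by 0.46 ± 0.06 in DKO against WT (adjusted p = 0.0023). The CD24 gene Cd24a was at 5.76 and 2.79 FPKM in DKO libraries, 4.32 and 2.74 in Tcf1 KO libraries, and 3.23 and 2.61 in WT libraries, which overlapped, and was not called. Macrophages are rich in lysosomes, and 14 of 16 of their defining genes were below 1 FPKM in every library, with Csf1r at 0.07 at most and Cd14 at 0. The 16 genes summed to 4.37 to 5.76 FPKM in DKO, 3.69 to 5.44 in Tcf1 KO and 3.18 to 3.57 in WT. Among them Cd163 rose in DKO against WT, by 0.75 ± 0.14 (adjusted p = 0.00794, 0.0504 without WT replicate 1), with 1.42 and 1.79 FPKM in DKO libraries and 0.50 and 0.59 in WT libraries. Dendritic cell genes summed to 61.5 to 79.8 FPKM in DKO, 204.8 to 230.1 in Tcf1 KO and 215.3 to 223.9 in WT, nearly all of it Ccr7, which mature thymocytes also express; both tested genes, Ccr7 and Cd74, fell in DKO against WT (Cd74 at adjusted p = 0.0619 without WT replicate 1). B cell genes summed to 23.98 to 27.0 FPKM in DKO, 16.1 to 17.7 in Tcf1 KO and 19.7 to 20.8 in WT, and of the 2 tested Cd79b rose in DKO against WT by 0.29 ± 0.09 (adjusted p = 0.0396, lost in 5 settings at 0.0507 to 0.182). Erythroid genes, mostly Car2, summed to 17.4 to 18.9 FPKM in DKO, 6.34 to 6.42 in Tcf1 KO and 10.8 in both WT libraries; Car2, the 1 tested, rose in DKO against WT and fell in Tcf1 KO against WT (adjusted p = 0.00646, and 0.056, 0.103 and 0.0912 without Tcf1 KO replicate 2, WT replicate 1 and WT replicate 2). Stromal genes summed to 3.75 to 4.40 FPKM in DKO, 2.11 to 2.66 in Tcf1 KO and 2.05 to 2.26 in WT. Both tested stromal genes rose in DKO against WT, Cdh5 by 0.74 ± 0.13 (adjusted p = 0.00556) and Epcam by 0.54 ± 0.14 (adjusted p = 0.0221, and 0.0524 to 0.119 without any 1 DKO or WT library). Neutrophil genes summed to 8.94 to 9.26 FPKM in DKO, 7.76 to 7.93 in Tcf1 KO and 7.32 to 7.70 in WT, and Cxcr2, the 1 tested, rose in DKO against WT by 0.24 ± 0.07 (adjusted p = 0.0296, and 0.0506 to 0.169 without any 1 library). The part of other cells in the results below was not tested, and in sorted bulk RNA fewer cells of a type and less RNA per cell cannot be told apart.

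In DKO cells the lysosomal genes split into genes that rose and genes that fell. The endopeptidase legumain (Lgmn), the cathepsins Ctsl, Ctsd and Ctsa and the GM2 activator Gm2a rose, while the acid lipase Lipa, the cholesterol carrier Npc2, the ceramidase Asah1 and the accessory pump protein Atp6ap2 fell. Of the 16 tested genes of the proton pump 2 rose and 3 fell, and none of its 5 tested V0 genes passed the test. Of the 55 members, 44 passed the filter on low values (1 FPKM or more in 2 or more of the 6 libraries). Changes are differences of log2(FPKM + 1) with their standard error (SE), and a change was called at a Benjamini-Hochberg adjusted p under 0.05 in limma, adjusted over all 6761 tested genes. This scale understates the change of genes with low FPKM. In DKO against WT, 22 of the 44 were called, 12 higher and 10 lower. Over all tested genes 49.5% were called in this comparison, 21.7% higher and 27.8% lower, so the members' share of 50% was near the background. With the log2 values scaled to a common median, the split of the members was 15 higher and 8 lower, and that of all called genes turned from 1465 higher and 1880 lower to 1781 and 1617. Of the 44 tested members, 8 were called with a change of at least 1.5-fold, beside 20.3% of all tested genes. The members' differences ran from -1.10 to 1.15 with a median of -0.0093, beside -0.027 for all tested genes. In 35 of the 44 the DKO and WT libraries did not overlap, against 77.4% of all tested genes.

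The loss of Tcf1 alone was set against WT. In Tcf1 KO, 2 of the 44 members were called, both higher, where 2.09% of all tested genes were called, 1.33% higher. They were the aspartic protease Ctsd and the cysteine protease Ctsl, and the members' median was 0.037 beside -0.0061 for all tested genes. None was called lower, and 8 members had an unadjusted p under 0.05, 7 of them higher and 1 lower. That is 18.2% of the 44, beside 21.1% of all tested genes. In DKO against Tcf1 KO, 15 of the 44 were called, 8 higher and 7 lower, where 38.4% of all tested genes were called. The median there was -0.052 for the members and -0.028 for all tested genes. In 33 of the 44 the DKO and Tcf1 KO libraries did not overlap, against 69.1% of all tested genes, and in 27 of the 44 the Tcf1 KO and WT libraries did not, against 55.8%. The 3 comparisons share libraries in pairs, so their values below stand side by side and are not independent.

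**Figure D1:**
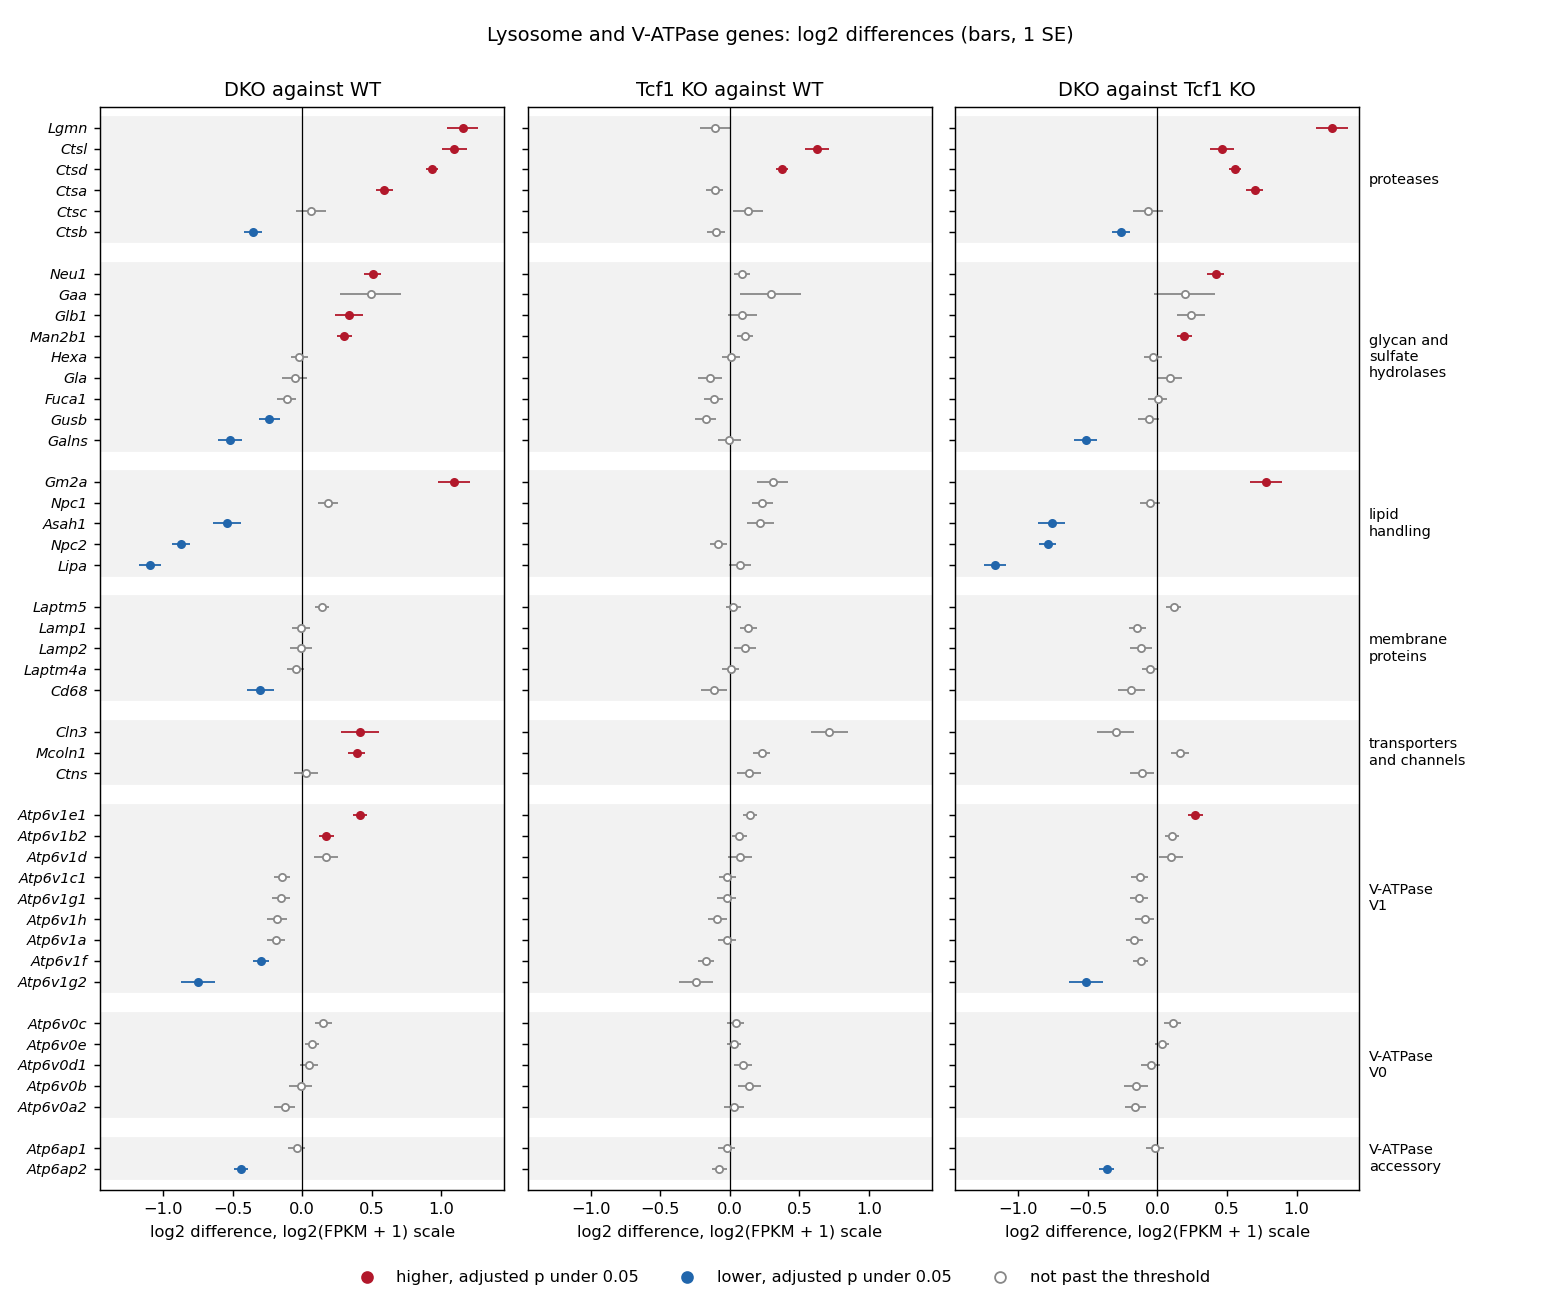
Log2 differences of the 44 tested members on the log2(FPKM + 1) scale (x axis), by role (rows), in DKO against WT (left), Tcf1 KO against WT (middle) and DKO against Tcf1 KO (right); points are estimates and bars 1 SE, with filled points for calls. In DKO against WT the proteases and lipid handling genes reach from -1.10 (Lipa) to 1.15 (Lgmn), while in Tcf1 KO against WT the filled points are Ctsd and Ctsl.

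Most of the proteases rose in DKO cells. Of 6 tested, 4 rose and 1 fell in DKO, both against WT and against Tcf1 KO, and 2 rose in Tcf1 KO against WT. In both DKO comparisons 83.3% were called, beside 49.5% of all tested genes against WT and 38.4% against Tcf1 KO. For Tcf1 KO against WT the share was 33.3%, beside 2.09%. The differences from these shares were not tested. Their summed level was 549.8 ± 20.8 FPKM in DKO, 399 ± 0.156 in Tcf1 KO and 339.8 ± 0.325 in WT (SD, n = 2 each). Most of it was Ctsd, the main aspartic protease of lysosomes, at 375.0 and 357.2 FPKM in DKO libraries, 248.7 and 247.8 in Tcf1 KO libraries, and 190.9 and 191.3 in WT libraries. All 3 groups were apart, with Tcf1 KO between DKO and WT. Ctsd rose by 0.93 ± 0.04 in DKO against WT (adjusted p = 0.000123), by 0.38 ± 0.04 in Tcf1 KO against WT (adjusted p = 0.0217) and by 0.56 ± 0.04 in DKO against Tcf1 KO (adjusted p = 0.00078). Ctsl, a cysteine protease that in thymic epithelium shapes the peptides shown to CD4 cells, was at 15.9 and 14.0 FPKM in DKO libraries, 10.1 and 10.98 in Tcf1 KO libraries, and 6.64 and 6.28 in WT libraries. It had the same order without overlap. The rise was 1.09 ± 0.09 in DKO against WT (adjusted p = 0.00039), 0.63 ± 0.09 in Tcf1 KO against WT (adjusted p = 0.0348) and 0.47 ± 0.09 in DKO against Tcf1 KO (adjusted p = 0.0102). In Tcf1 KO against WT both calls were lost when any Tcf1 KO or WT library was left out, at adjusted p of 0.0701 without Tcf1 KO replicate 1, 0.129 without Tcf1 KO replicate 2, 0.191 without WT replicate 1 and 0.205 without WT replicate 2 for Ctsd, and 0.0635, 0.146, 0.198 and 0.246 for Ctsl in that order. Without the filter on low values they were 0.0706 for Ctsd and 0.0953 for Ctsl, and Ctsd was at 0.0531 without the variance trend. Ctsl also lost its call in DKO against Tcf1 KO without Tcf1 KO replicate 1 (0.056).

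Lgmn and Ctsa rose in DKO against both other groups and were not called in Tcf1 KO against WT. Lgmn, which cuts after asparagine and also activates other proteases, was at 3.65 and 3.66 FPKM in DKO libraries, 1.01 and 0.89 in Tcf1 KO libraries, and 0.96 and 1.24 in WT libraries. Both DKO libraries stood above the other 4, which overlapped. Lgmn rose by 1.15 ± 0.11 in DKO against WT (adjusted p = 0.000746), a ratio of mean FPKM of 3.32, and by 1.26 ± 0.11 against Tcf1 KO (adjusted p = 0.00108). Ctsa, a carboxypeptidase that also shields neuraminidase and β-galactosidase, was at 87.1 and 86.45 FPKM in DKO libraries, 51.2 and 55.1 in Tcf1 KO libraries, and 54.8 and 59.9 in WT libraries. Again DKO stood apart, while Tcf1 KO and WT overlapped. Ctsa rose by 0.59 ± 0.06 against WT (adjusted p = 0.00101) and by 0.70 ± 0.06 against Tcf1 KO (adjusted p = 0.0011). The differences in Tcf1 KO against WT were -0.10 ± 0.11 for Lgmn (adjusted p = 0.668) and -0.11 ± 0.06 for Ctsa (adjusted p = 0.404).

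The cysteine protease Ctsb went the other way. It was at 27.4 and 25.8 FPKM in DKO libraries, 30.7 and 33.5 in Tcf1 KO libraries, and 33.7 and 35.0 in WT libraries. The groups did not overlap, with DKO lowest. Ctsb fell by 0.36 ± 0.06 in DKO against WT (adjusted p = 0.00654, 0.051 without WT replicate 2) and by 0.26 ± 0.06 against Tcf1 KO (adjusted p = 0.026). The second call was lost without DKO replicate 2 (0.0832), Tcf1 KO replicate 2 (0.121), WT replicate 1 (0.0571) or WT replicate 2 (0.0576). With the 4 libraries of the comparison alone, Ctsb was also not called in DKO against Tcf1 KO (adjusted p = 0.0585). Ctsc, which activates the granzymes of cytotoxic cells, was not called in any comparison and ranged from 45.85 to 57.4 FPKM over the 6 libraries. In the reference annotation exons of Ctsb overlap those of Fdft1 on the other strand, and exons of Ctsa those of Neurl2 and Pltp. Exons of Ctsl overlap the antisense gene Gm47123 and, on the same strand, the processed pseudogene Gm49230, and exons of Ctsd overlap Gm49369 on the same strand. Fdft1 itself was at 2.79 and 3.26 FPKM in DKO libraries, 3.87 and 4.08 in Tcf1 KO libraries, and 4.70 and 4.63 in WT libraries. Whether the counting used strand is not given in the sources used here, and reads of genes that share a strand can be split between them, so the values of such pairs are uncertain, those of Ctsl and Ctsd included. Of the other tested members Glb1, Lamp1, Npc1, Atp6v0a2, Atp6v0b and Atp6v1h also share exon bases with another annotated gene.

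The promoter of Ctsd, the most abundant protease, holds 2 copies of the E-box core, which was also found in members that were not called. The 250 bases before its start, on the minus strand at chr7:142387828-142388077 of GRCm38.p6 (RefSeq), are printed with the core in capitals; the copies begin 245 and 98 bases before the start:
Ctsd: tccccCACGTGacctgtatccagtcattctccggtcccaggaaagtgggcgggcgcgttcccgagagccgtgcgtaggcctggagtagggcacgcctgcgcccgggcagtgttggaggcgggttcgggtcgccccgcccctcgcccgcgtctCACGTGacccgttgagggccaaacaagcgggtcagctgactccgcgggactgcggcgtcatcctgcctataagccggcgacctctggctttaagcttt

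**Figure D2:**
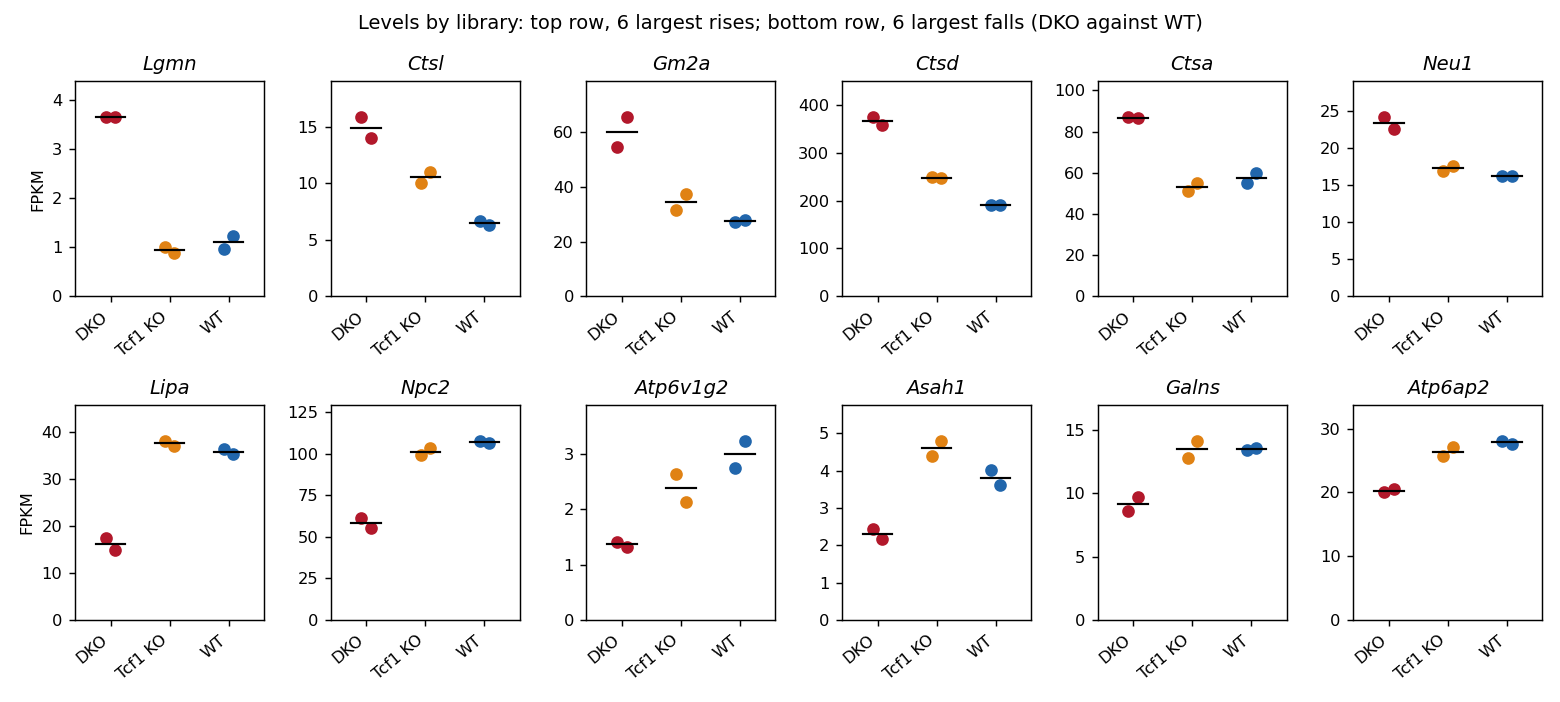
FPKM in each library (y axis, from 0) of the 6 largest rises (top) and 6 largest falls (bottom) among the members in DKO against WT; points are libraries, lines group means, and groups run DKO, Tcf1 KO, WT. In Ctsl, Ctsd and Gm2a the Tcf1 KO libraries lie between those of DKO and WT, while in Lgmn, Ctsa and Galns the Tcf1 KO and WT libraries overlap.

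The hydrolases of glycans and sulfates moved both ways. Of 9 tested, 3 rose and 2 fell in DKO against WT, and 2 rose and 1 fell in DKO against Tcf1 KO. The called shares were 55.6% and 33.3%, near the 49.5% and 38.4% of all tested genes. Limma called none of the 9 in Tcf1 KO against WT, and none had an unadjusted p under 0.05. Neu1, a sialidase, was at 24.2 and 22.6 FPKM in DKO libraries, 16.9 and 17.6 in Tcf1 KO libraries, and 16.18 and 16.17 in WT libraries. The groups did not overlap, and Tcf1 KO lay close to WT. Neu1 rose by 0.51 ± 0.06 in DKO against WT (adjusted p = 0.00139) and by 0.42 ± 0.06 against Tcf1 KO (adjusted p = 0.00422). Man2b1, the lysosomal α-mannosidase, was the most abundant of these enzymes, at 59.7 FPKM in both DKO libraries, 53.9 and 50.3 in Tcf1 KO libraries, and 46.9 and 49.6 in WT libraries. DKO was highest and the groups did not overlap. Man2b1 rose by 0.30 ± 0.06 in DKO against WT (adjusted p = 0.00687) and by 0.19 ± 0.06 against Tcf1 KO (adjusted p = 0.0396). The second of these was not called when any 1 of the 6 libraries was left out: 0.0944 and 0.0923 without DKO replicates 1 and 2, 0.0614 and 0.179 without Tcf1 KO replicates 1 and 2, and 0.0674 and 0.0679 without WT replicates 1 and 2. That Man2b1 call was also lost without the filter on low values (0.0573), without the variance trend (0.0706) and with the 4 libraries compared alone (0.068). The β-galactosidase Glb1 was at 20.7 and 24.99 FPKM in DKO libraries, 18.1 and 20.0 in Tcf1 KO libraries, and 17.4 and 18.3 in WT libraries. Its difference of 0.24 ± 0.10 in DKO against Tcf1 KO was not called (adjusted p = 0.113) but passed under median scaling (0.0481). Glb1 rose by 0.33 ± 0.10 in DKO against WT (adjusted p = 0.0387). The call was lost without DKO replicate 2 (0.107), Tcf1 KO replicate 1 (0.0523), Tcf1 KO replicate 2 (0.0526), WT replicate 1 (0.159) or WT replicate 2 (0.111), and in 3 other settings (0.0503 to 0.077).

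Galns, which removes sulfate from keratan and chondroitin chains, was at 8.56 and 9.70 FPKM in DKO libraries, 12.8 and 14.15 in Tcf1 KO libraries, and 13.4 and 13.5 in WT libraries. Both DKO libraries stood below the other 4, which overlapped. Galns fell by 0.52 ± 0.08 in DKO against WT (adjusted p = 0.00436) and by 0.52 ± 0.08 against Tcf1 KO (adjusted p = 0.00663). The β-glucuronidase Gusb fell by 0.24 ± 0.08 in DKO against WT (adjusted p = 0.0459), with 19.9 and 18.4 FPKM in DKO libraries, 20.03 and 20.08 in Tcf1 KO libraries, and 21.4 and 24.1 in WT libraries. Its call did not hold without DKO replicate 2 (0.147), Tcf1 KO replicate 1 (0.0759), Tcf1 KO replicate 2 (0.0761) or WT replicate 2 (0.235), nor under 6 other settings, among them median scaling (0.103). Hexa, Gla, Fuca1 and Gaa were not called in any comparison. Gaa, the acid α-glucosidase that breaks down glycogen, had the widest spread of the 4, with 6.67 and 10.6 FPKM in DKO libraries, 6.39 and 8.16 in Tcf1 KO libraries, and 5.22 and 6.24 in WT libraries. Its difference in DKO against WT was 0.49 ± 0.22 (adjusted p = 0.114), and it was called without DKO replicate 1 (0.0165).

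Most genes of lipid handling fell in DKO cells. In DKO 1 of the 5 rose and 3 fell, both against WT and against Tcf1 KO. That was 80% called in each, beside 49.5% and 38.4% of all tested genes, and the differences from these shares were not tested. In Tcf1 KO against WT limma called none, and 2 had an unadjusted p under 0.05. Gm2a, the activator that lifts GM2 ganglioside to its hydrolase, was at 54.45 and 65.6 FPKM in DKO libraries, 31.6 and 37.3 in Tcf1 KO libraries, and 27.1 and 28.0 in WT libraries. DKO was highest and no groups overlapped. Gm2a rose by 1.09 ± 0.11 in DKO against WT (adjusted p = 0.000929) and by 0.78 ± 0.11 against Tcf1 KO (adjusted p = 0.00457), and the difference between Tcf1 KO and WT was 0.31 ± 0.11 (adjusted p = 0.205). Lipa, the acid lipase that frees cholesterol and fatty acids from lipoproteins, was at 17.5 and 15.0 FPKM in DKO libraries, 38.2 and 37.1 in Tcf1 KO libraries, and 36.3 and 35.3 in WT libraries. The DKO libraries were far below the other 4. Lipa fell by 1.10 ± 0.08 in DKO against WT (adjusted p = 0.000321) and by 1.17 ± 0.08 against Tcf1 KO (adjusted p = 0.000538).

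Npc2, the soluble protein that carries the freed cholesterol to the membrane transporter Npc1, followed Lipa. It was at 61.3 and 55.2 FPKM in DKO libraries, 98.95 and 103.3 in Tcf1 KO libraries, and 107.8 and 106.4 in WT libraries. DKO was lowest without overlap. Npc2 fell by 0.87 ± 0.06 in DKO against WT (adjusted p = 0.000312) and by 0.79 ± 0.06 against Tcf1 KO (adjusted p = 0.00078). Npc1 was not called, with 19.8 and 20.9 FPKM in DKO libraries, 19.98 and 22.3 in Tcf1 KO libraries, and 18.3 and 17.3 in WT libraries, and a difference of 0.18 ± 0.07 in DKO against WT (adjusted p = 0.0858). It passed under median scaling (0.0298) and quantile normalization (0.0392). Of this carrier pair, only Npc2 was called, and the difference between the 2 genes was not tested. Asah1, the acid ceramidase, was at 2.43 and 2.18 FPKM in DKO libraries, 4.38 and 4.80 in Tcf1 KO libraries, and 4.01 and 3.60 in WT libraries. It fell by 0.54 ± 0.10 in DKO against WT (adjusted p = 0.00658, 0.0533 without WT replicate 1) and by 0.76 ± 0.10 against Tcf1 KO (adjusted p = 0.00307). The 5 genes summed to 157.2 ± 2.30 FPKM in DKO, 199 ± 8.30 in Tcf1 KO and 192.1 ± 2.04 in WT (SD, n = 2 each).

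Lipa, the member with the largest fall, has no E-box core in its window but 1 copy of CTTTGAA, in capitals here, beginning 194 bases before the start (minus strand, chr19:34527475-34527724, GRCm38.p6, RefSeq):
Lipa: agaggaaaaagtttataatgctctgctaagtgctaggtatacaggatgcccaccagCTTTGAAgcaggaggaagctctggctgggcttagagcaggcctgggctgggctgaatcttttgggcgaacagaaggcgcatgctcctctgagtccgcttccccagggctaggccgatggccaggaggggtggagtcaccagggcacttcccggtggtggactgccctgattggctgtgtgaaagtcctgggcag

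Structural proteins of the lysosomal membrane were next. Of 5 tested, none rose and 1, Cd68, fell in DKO against WT (20% called, beside 49.5% of all tested genes). In Tcf1 KO against WT and in DKO against Tcf1 KO limma called none, and none had an unadjusted p under 0.05. Laptm5, a lysosomal protein of blood cells that lowers the surface level of antigen receptors, was the most abundant member of all, at 729.1 and 682.2 FPKM in DKO libraries, 655.8 and 645.4 in Tcf1 KO libraries, and 631.2 and 646.4 in WT libraries. The DKO libraries were the highest of the 6, and its difference in DKO against WT was 0.14 ± 0.05 (adjusted p = 0.0663). It was called without DKO replicate 2 (0.0312) and under median scaling (0.0389). The main membrane glycoproteins of lysosomes, Lamp1 (42.4 to 50.7 FPKM) and Lamp2 (13.7 to 16.3 FPKM), and Laptm4a (43.5 to 48.3 FPKM) were not called in any comparison. Their differences in DKO against WT were -0.01 ± 0.06, -0.01 ± 0.08 and -0.05 ± 0.06. Cd68, a glycoprotein abundant in macrophages, was at 3.01 and 2.76 FPKM in DKO libraries, 3.39 and 3.45 in Tcf1 KO libraries, and 4.04 and 3.54 in WT libraries. It fell by 0.30 ± 0.10 in DKO against WT (adjusted p = 0.0442). The call was lost without any 1 library: 0.0677 and 0.138 without DKO replicates 1 and 2, 0.0673 and 0.0676 without Tcf1 KO replicates 1 and 2, and 0.23 and 0.0861 without WT replicates 1 and 2. It was also lost without the filter on low values (0.104), under median scaling (0.0874), under quantile normalization (0.303) and with the 4 libraries of the comparison alone (0.068), and the difference ran from -0.38 to -0.13 over the settings.

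Among transporters and channels, 2 of 3 rose in DKO against WT (66.7% called, beside 49.5% of all tested genes). Mcoln1, the calcium channel of lysosomes, was at 29.4 and 30.5 FPKM in DKO libraries, 25.65 and 27.7 in Tcf1 KO libraries, and 23.15 and 22.0 in WT libraries. The groups did not overlap, and Tcf1 KO lay between DKO and WT. Mcoln1 rose by 0.39 ± 0.06 in DKO against WT (adjusted p = 0.00388). Its differences were 0.23 ± 0.06 in Tcf1 KO against WT (adjusted p = 0.113) and 0.16 ± 0.06 in DKO against Tcf1 KO (adjusted p = 0.0897). The last of these passed under median scaling (0.0343). Cln3, a lysosomal membrane protein whose loss causes Batten disease in people, was at 12.9 and 17.4 FPKM in DKO libraries, 18.55 and 18.8 in Tcf1 KO libraries, and 10.6 and 11.4 in WT libraries. Here Tcf1 KO was highest, and the DKO libraries differed from each other more than those of the other groups. Cln3 rose by 0.42 ± 0.13 in DKO against WT (adjusted p = 0.0463), and its larger difference of 0.72 ± 0.13 in Tcf1 KO against WT was not called (adjusted p = 0.0657). The call in DKO against WT was lost without the filter on low values (0.0967), without the variance trend (0.0572) and with the 4 libraries compared alone (0.0771). The difference in Tcf1 KO against WT was called with the 4 libraries compared alone (0.0209). The first call was lost without DKO replicate 2 (0.0737), Tcf1 KO replicate 1 (0.0747), Tcf1 KO replicate 2 (0.075), WT replicate 1 (0.181) or WT replicate 2 (0.118), and the second difference was called without DKO replicate 1 (0.0154) or DKO replicate 2 (0.016). In DKO against Tcf1 KO Cln3 differed by -0.30 ± 0.13 (adjusted p = 0.134), and it was called lower without DKO replicate 2 (0.00915). Exons of Cln3 overlap those of Apobr on the other strand, which was at 1.39 and 3.21 FPKM in DKO libraries, 2.78 and 3.48 in Tcf1 KO libraries, and 1.62 and 2.23 in WT libraries. Ctns, the cystine exporter, was not called and ranged from 5.09 to 5.99 FPKM. None of the 3 was called in Tcf1 KO against WT or in DKO against Tcf1 KO, and 2 and 1 of them had an unadjusted p under 0.05.

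Mcoln1 and 1 of the 2 annotated starts of Cln3 each carry 2 copies of the E-box core. The window of the other Cln3 start (chr7:126585768-126586067) holds none. In the Cln3 window with the core (minus strand, chr7:126583237-126583486, GRCm38.p6, RefSeq) the copies begin 149 and 121 bases before that start. The copy nearer to it lies in 1 form of the longer CLEAR element of TFEB targets, in which GT precedes and AC follows the core. In Mcoln1 (plus strand, chr8:3500269-3500518) the copies begin 71 and 45 bases before the start. The core is in capitals:
Cln3: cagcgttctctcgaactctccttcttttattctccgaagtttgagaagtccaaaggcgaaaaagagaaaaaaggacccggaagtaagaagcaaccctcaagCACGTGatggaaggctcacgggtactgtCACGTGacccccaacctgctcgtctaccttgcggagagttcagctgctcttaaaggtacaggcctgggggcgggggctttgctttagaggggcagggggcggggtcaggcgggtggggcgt
Mcoln1: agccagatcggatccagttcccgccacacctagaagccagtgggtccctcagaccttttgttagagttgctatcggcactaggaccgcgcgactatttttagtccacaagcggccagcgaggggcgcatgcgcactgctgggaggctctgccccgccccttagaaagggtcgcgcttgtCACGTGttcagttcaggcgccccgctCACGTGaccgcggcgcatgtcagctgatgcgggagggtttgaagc

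The summed level of the proton pump differed between groups by less than the spread between DKO libraries. Its 26 rows summed to 800.5 ± 33.1 FPKM in DKO, 811.2 ± 9.01 in Tcf1 KO and 809.7 ± 4.86 in WT (SD, n = 2 each). Of its 16 tested genes, 2 rose and 3 fell in DKO against WT, with a median of -0.084. That was 31.2% called in all, beside 49.5% of all tested genes. Against Tcf1 KO, where 38.4% of all tested genes were called, 1 rose and 2 fell in DKO. In Tcf1 KO against WT limma called none, while 2 had an unadjusted p under 0.05. The other 28 tested members had 17 calls in DKO against WT, 60.7%, with a median of 0.046. The difference between these shares was not tested.

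In the V1 part, 2 of 9 tested genes rose and 2 fell in DKO against WT (44.4% called, beside 49.5% of all tested genes). Atp6v1e1, the widely expressed E subunit of the stalk, was at 48.45 and 47.4 FPKM in DKO libraries, 38.3 and 40.6 in Tcf1 KO libraries, and 35.95 and 35.3 in WT libraries. The 3 groups were apart, with DKO highest. Atp6v1e1 rose by 0.42 ± 0.05 in DKO against WT (adjusted p = 0.00155) and by 0.27 ± 0.05 against Tcf1 KO (adjusted p = 0.0101, 0.0585 without Tcf1 KO replicate 1). Atp6v1b2, the B subunit next to the sites that split ATP, rose by 0.17 ± 0.05 in DKO against WT (adjusted p = 0.0408). It was at 35.2 and 33.4 FPKM in DKO libraries, 31.1 and 32.5 in Tcf1 KO libraries, and 30.7 and 29.9 in WT libraries. Its call was lost without the variance trend (0.0659) and with the 4 libraries of the comparison alone (0.0623). That call was lost without DKO replicate 1 (0.132), Tcf1 KO replicate 1 (0.0626), Tcf1 KO replicate 2 (0.0629), WT replicate 1 (0.12) or WT replicate 2 (0.187). Atp6v1f, the F subunit of the central shaft and the most abundant V1 gene, was at 107.4 and 100.9 FPKM in DKO libraries, 109.9 and 116.7 in Tcf1 KO libraries, and 130.8 and 125.0 in WT libraries. The groups did not overlap, with WT highest and DKO lowest. Atp6v1f fell by 0.29 ± 0.06 in DKO against WT (adjusted p = 0.00812, 0.0571 without WT replicate 1), and its difference in Tcf1 KO against WT was -0.17 ± 0.06 (adjusted p = 0.16).

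Atp6v1g2, a G subunit known mainly from neurons, was the lowest V1 gene that was tested. It was at 1.41 and 1.32 FPKM in DKO libraries, 2.63 and 2.13 in Tcf1 KO libraries, and 2.74 and 3.24 in WT libraries. DKO stood below both other groups, which did not overlap either. Atp6v1g2 fell by 0.75 ± 0.12 in DKO against WT (adjusted p = 0.00438) and by 0.51 ± 0.12 against Tcf1 KO (adjusted p = 0.0228). The call against Tcf1 KO was lost without the filter on low values (0.0571) and under quantile normalization (0.0554). The second call was lost without DKO replicate 1 (0.0564), DKO replicate 2 (0.0726) or Tcf1 KO replicate 1 (0.0986). Its exons overlap those of Nfkbil1 on the other strand, which was at 8.08 and 9.71 FPKM in DKO libraries, 11.8 and 12.1 in Tcf1 KO libraries, and 13.81 and 13.82 in WT libraries. The neighbour was thus more abundant and had the same order of groups, and its part in the reads of Atp6v1g2 was not tested. The widely expressed G subunit Atp6v1g1 was at 57.6 to 69.3 FPKM and was not called in any comparison, but was called lower without DKO replicate 1 in DKO against WT (0.0213) and in DKO against Tcf1 KO (0.0373). Atp6v1a, Atp6v1c1, Atp6v1d and Atp6v1h were not called either. Their differences in DKO against WT ran from -0.19 ± 0.06 for Atp6v1a (adjusted p = 0.0562) to 0.17 ± 0.09 for Atp6v1d (adjusted p = 0.161). Atp6v1a was called lower without DKO replicate 1 (0.0361), and Atp6v1d higher without DKO replicate 2 (0.0227).

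None of the 5 tested V0 genes was called in any comparison by limma, and in DKO against WT 1 of them, Atp6v0c, had an unadjusted p under 0.05. Atp6v0c, the proteolipid of the proton ring, was at 127.8 and 120.1 FPKM in DKO libraries, 112.2 and 117.2 in Tcf1 KO libraries, and 107.1 and 115.8 in WT libraries. The DKO libraries were above the other 4, which overlapped. Its difference in DKO against WT was 0.15 ± 0.06 (adjusted p = 0.0841), which passed under median scaling (0.0353). Atp6v0e, Atp6v0b, Atp6v0d1 and Atp6v0a2 lay between 29.1 and 97.1 FPKM, with differences in DKO against WT from -0.13 ± 0.07 (Atp6v0a2) to 0.07 ± 0.05 (Atp6v0e). Atp6v0b, with 53.2 and 45.4 FPKM in DKO libraries and 56.5 and 53.1 in Tcf1 KO libraries, was called lower in DKO against Tcf1 KO without DKO replicate 1 (0.039). The V0 genes summed to 346.4 ± 18.2 FPKM in DKO, 344.6 ± 0.445 in Tcf1 KO and 330.8 ± 12.4 in WT (SD, n = 2 each). The a3 subunit gene, Tcirg1, is not analysed here.

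Of the 2 tested accessory proteins 1 fell in DKO (50% called, beside 49.5% of all tested genes against WT and 38.4% against Tcf1 KO). Atp6ap2, which helps assemble the pump and is also known as the prorenin receptor, was at 20.0 and 20.6 FPKM in DKO libraries, 25.75 and 27.1 in Tcf1 KO libraries, and 28.1 and 27.6 in WT libraries. DKO was lowest and the groups did not overlap. Atp6ap2 fell by 0.44 ± 0.05 in DKO against WT (adjusted p = 0.0015) and by 0.36 ± 0.05 against Tcf1 KO (adjusted p = 0.00451). Atp6ap1, another assembly protein, was at 52.4 and 57.2 FPKM in DKO libraries, 54.5 and 56.5 in Tcf1 KO libraries, and 54.65 and 58.1 in WT libraries. The groups overlapped and the gene was not called, with a difference of -0.04 ± 0.06 in DKO against WT (adjusted p = 0.625).

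**Figure D3:**
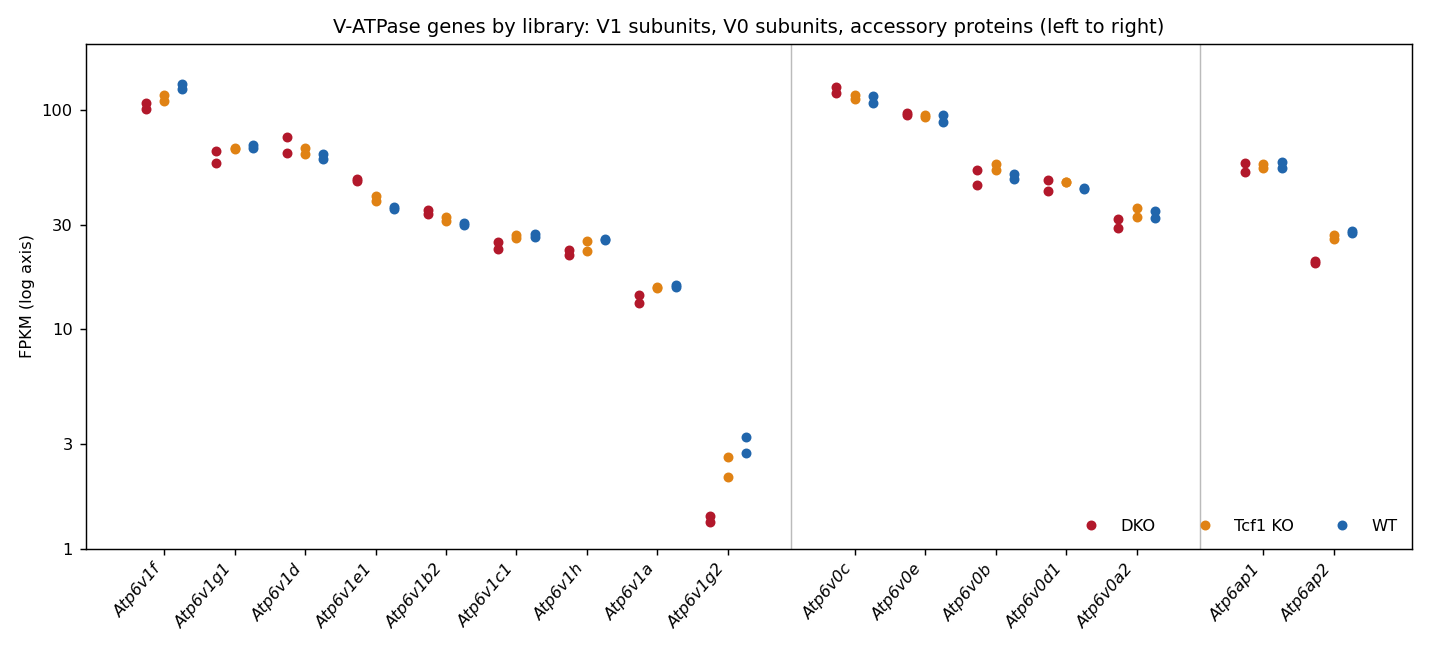
FPKM of the 16 tested V-ATPase genes in each library (y axis, log scale), with V1 subunits, V0 subunits and accessory proteins from left to right; points are libraries, coloured by genotype in the order DKO, Tcf1 KO, WT. Among the 5 genes called in DKO against WT, the DKO points lie above both other groups in Atp6v1e1 and Atp6v1b2. They lie below both in Atp6v1f, Atp6v1g2 and Atp6ap2. Some genes that were not called also have DKO points apart from both groups, such as Atp6v0c above and Atp6v1a below. The DKO and WT libraries do not overlap in 13 of the 16 genes, beside 77.4% of all tested genes.

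The 11 members set aside are mostly forms known from other tissues. They were Cd63, Atp6ap1l, Atp6v0a1, Atp6v0a4, Atp6v0c-ps2, Atp6v0d2, Atp6v0e2, Atp6v1b1, Atp6v1c2, Atp6v1e2 and Atp6v1g3. Of these, 3 were listed at 0 in every library (Atp6ap1l, Atp6v0a4 and Atp6v0e2) and 8 were below 0.1 FPKM throughout. The kidney and inner ear subunit Atp6v1b1 reached 0.01 FPKM, and the osteoclast subunit Atp6v0d2 reached 0.08. Atp6v0a1, the a1 subunit of synaptic vesicles, was at 0.69 and 1.16 FPKM in DKO libraries, 0.40 and 0.56 in Tcf1 KO libraries, and 0.28 and 0.25 in WT libraries, in groups that did not overlap but below the filter and not tested. The highest value, 1.71 FPKM in WT replicate 1, belonged to Atp6v0c-ps2, a pseudogene that may take reads of Atp6v0c.

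The promoters of the members were searched for the E-box core and for Tcf1 and Lef1 motifs. RefSeq windows of GRCm38.p6, from 250 bases before to 50 after each start, matched 43 of the 55 members; the expression table was made on mm9, so the windows describe the annotation and not the authors' transcripts. The core CACGTG, which reads the same on both strands, was in a window of 14 of the 43 members (32.6%). It was in a window of 2187 of 27025 genes in the RefSeq table (8.09%). Those genes were not limited to the ones tested or expressed here, so the 2 sets are unlike. Among matched members it was in 7 of 11 that rose in DKO against WT (Glb1, Ctsa, Ctsd, Ctsl, Lgmn, Cln3 and Mcoln1), in 0 of 7 that fell (Gusb, Lipa, Npc2, Cd68, Atp6ap2, Atp6v1f and Atp6v1g2) and in 7 of 17 that were not called. The last were Gaa, Gla, Lamp1, Atp6v0b, Atp6v0d1, Atp6v0e and Atp6v1a, and Lamp1 had 4 copies, so the core was also present in genes without a called change. A gene was counted if any of its windows held the core, and Ctsa, Lgmn and Cln3 held it in 1 of 2 windows. Galns, Asah1 and Ctsb, which also fell, and Atp6v1b2, which also rose, had no matched window. Some members of these groups, among them Glb1, Cln3, Gusb and Cd68, did not keep their call in all 14 alternatives. By window the counts were 7 of 14 for members that rose, 0 of 8 for those that fell and 7 of 20 for those not called. Of the CLEAR element, only the form with GT before and AC after the core was searched. That exact form was in 1 member, Cln3 (in 1 of its 2 windows), and in 0.37% of all genes. Other forms of the element were not searched, so members without this form may still carry the element. The motifs CTTTGAT and CTTTGAA on either strand were in 6 of the 43 members (14%) and 9.88% of all genes: in 1 of 11 that rose (Atp6v1e1), 2 of 7 that fell (Lipa and Npc2) and 1 of 17 not called (Lamp2), and in Atp6v0e2 and Atp6v1g3, which were not tested. The split by direction was made after the values were seen and was not tested, a match in these letters is not a bound site, and the 4 promoters printed above were also chosen with the values known.

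**Figure D4:**
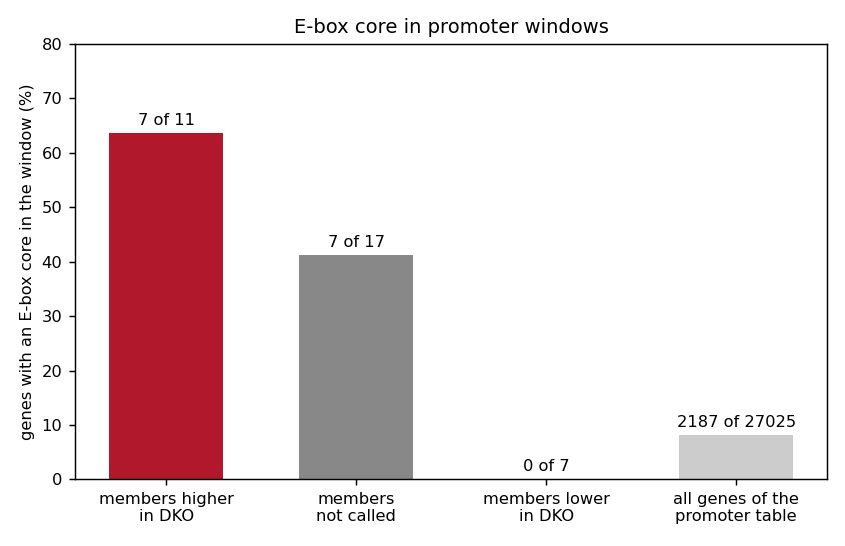
Percent of genes with the E-box core CACGTG in a RefSeq promoter window (y axis, from 0), for matched members by their call in DKO against WT and for all genes of the promoter table, with counts above the bars. The share is 63.6% in members higher in DKO, 41.2% in those not called, 0 of 7 in those lower in DKO and 8.09% over all genes. Counted by window, the shares are 50%, 35%, 0% and 7.15% in that order. The genes of the promoter table were not limited to those tested or expressed here.

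Further lysosomal genes, which are not members, were counted from a list of 57, of which 56 were in the table and 48 were tested. In DKO against WT 8 rose and 11 fell (39.6% called, median 0.027), with 4 rises without WT replicate 1 or WT replicate 2 and 7 falls without WT replicate 1. The largest changes were falls of Ifi30, a thiol reductase that prepares antigens, and of Arsb, a sulfatase, and a rise of Laptm4b, a relative of Laptm4a. Ifi30 was at 1.38 and 1.88 FPKM in DKO libraries, 6.39 and 7.45 in Tcf1 KO libraries, and 10.01 and 11.8 in WT libraries, and fell by 2.18 ± 0.14 in DKO against WT (adjusted p = 0.000218). Arsb was at 0.99 and 1.25 FPKM in DKO libraries, 4.97 and 4.51 in Tcf1 KO libraries, and 7.33 and 8.46 in WT libraries, and fell by 2.07 ± 0.11 (adjusted p = 0.000173). Laptm4b was at 7.13 and 7.17 FPKM in DKO libraries, 1.74 and 2.48 in Tcf1 KO libraries, and 1.09 and 1.07 in WT libraries, and rose by 1.97 ± 0.13 (adjusted p = 0.000253). In all 3 the Tcf1 KO libraries lay between DKO and WT without overlap, and none was called in Tcf1 KO against WT (adjusted p of 0.0894, 0.0608 and 0.0877). Arsb was called there without DKO replicate 1 (0.0472) or DKO replicate 2 (0.0475). The progranulin gene Grn fell in DKO against WT by 0.97 ± 0.13 (adjusted p = 0.00202). In DKO against Tcf1 KO 4 of the 48 rose and 11 fell, with 2 rises without DKO replicate 2, and in Tcf1 KO against WT limma called none, with 8 at an unadjusted p under 0.05.

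Of 28 tested genes that deliver enzymes to lysosomes, 3 rose and 5 fell in DKO against WT (28.6% called beside 49.5% of all tested genes, median 0.0095). Among them Gga3, an adaptor for the mannose-6-phosphate receptors, rose by 0.40 ± 0.05 (adjusted p = 0.00195), while Igf2r, one of these receptors, fell by 0.37 ± 0.05 (adjusted p = 0.00232) and the clathrin light chain gene Clta fell by 0.37 ± 0.06 (adjusted p = 0.00318). Against Tcf1 KO, where 38.4% of all tested genes were called, 2 of the 28 rose and 6 fell in DKO. Those counts were lowest without a Tcf1 KO library, at 0 rises and 2 falls without either one, and were 0 and 3 without DKO replicate 2 and 1 and 3 without WT replicate 2; without WT replicate 1 there was 1 rise. Limma called none of the 28 in Tcf1 KO against WT, with 3 at an unadjusted p under 0.05.

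Of 14 tested genes of mTORC1 signalling at the lysosome and of lysosome biogenesis, 4 rose and 3 fell in DKO against WT (50% called, beside 49.5% of all tested genes). These counts were 2 and 0 without WT replicate 1 and 1 and 1 without WT replicate 2. Nprl2 was called in both settings; it is part of the complex that restrains mTORC1 when amino acids are short. It was at 36.15 and 35.4 FPKM in DKO libraries, 24.2 and 22.2 in Tcf1 KO libraries, and 22.0 and 21.8 in WT libraries, and rose by 0.68 ± 0.06 against WT (adjusted p = 0.000502) and by 0.61 ± 0.06 against Tcf1 KO (adjusted p = 0.00133). Mitf, a relative of TFEB, reached 0.27 FPKM at most. Limma called none of the 14 in Tcf1 KO against WT, and none had an unadjusted p under 0.05. In DKO against Tcf1 KO 35.7% of the 14 were called, beside 38.4% of all tested genes. Against Tcf1 KO 4 rose and 1 fell in DKO, and no fall remained when DKO replicate 2 or any Tcf1 KO or WT library was left out. The rises there were 2 without DKO replicate 2 and 1 without any other library.

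Of 24 tested autophagy genes, 8 rose and 3 fell in DKO against WT (45.8% called beside 49.5% of all tested genes, median 0.17). The rises were 5 without WT replicate 1 and 2 without WT replicate 2, and the falls were 1 without DKO replicate 2 or without any Tcf1 KO or WT library. Gabarapl2, one of the ubiquitin-like proteins that coat autophagosomes, was at 94.9 and 87.2 FPKM in DKO libraries, 69.8 and 60.6 in Tcf1 KO libraries, and 52.2 and 50.5 in WT libraries. The groups were apart with Tcf1 KO in between, and Gabarapl2 rose by 0.81 ± 0.08 in DKO against WT (adjusted p = 0.00082) and by 0.48 ± 0.08 against Tcf1 KO (adjusted p = 0.00779). Its relative Map1lc3b rose by 0.47 ± 0.10 against WT (adjusted p = 0.0106, 0.0653 without WT replicate 2). Atg14, a subunit of the lipid kinase that starts autophagosomes, fell by 0.82 ± 0.12 against WT (adjusted p = 0.00279). Limma called none of the 24 in Tcf1 KO against WT, with 3 at an unadjusted p under 0.05. In DKO against Tcf1 KO, where 38.4% of all tested genes were called, 6 rose and 1 fell. The 6 rises were 2 without DKO replicate 1 or a Tcf1 KO library and 3 without a WT library, and the fall was lost without DKO replicate 2 or Tcf1 KO replicate 2, while 2 fell without DKO replicate 1.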

How the data were processed

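RNA of sorted mature CD8 thymocytes was sequenced from 3 genotypes, 2 libraries each, grouped by the sample titles. The values are the deposited FPKM, 1 gene-level column per library with 2 decimals and made on mm9 with RSEM 1.2.21 (FastQC is also listed), per the submitters' processing notes. For the aligner, the annotation and the use of strand, none is stated in the sources used here. RSEM splits reads shared by several genes, which leaves near-identical genes uncertain. The table holds no counts. Low values in short transcripts fell within 0.25 of whole fragments in only 59.7% to 63.2% of cases at the best-fitting depth, so reads were not recovered, depth is unknown, and no count test or interval was computed. Sums over the listed genes (223930 to 230442 FPKM per library) are not library totals.

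Genes reaching 1 FPKM in 2 or more of the 6 libraries were kept, 6761 of 16383. A model of genotype over the 6 libraries was fitted to log2(FPKM + 1) with limma 3.58.1 and a variance trend (R 4.3.3), leaving 3 residual degrees of freedom per gene. Tests were two-sided, with Benjamini-Hochberg adjustment over all tested genes and a threshold of 0.05. In data simulated for DKO against WT, 200 of 6601 to 6607 genes were changed. The fit recovered 42.5% of changes of 0.5 (log2), 85% of changes of 1 and 97.5% of changes of 2. Of its calls, 2.99% to 6.08% were false. In the real comparison 49.5% of tested genes were called, so these rates need not hold there. For each comparison 14 alternatives were run: another pseudocount (0.1), no filter or a mean of at least 5 FPKM, median scaling, quantile normalization, no variance trend, only the 4 libraries compared, a replicate block, and each library left out.

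Full values are given for the 8 largest rises and falls past the threshold in each comparison and the most abundant member of each role, and for some further members so that every called one is shown; lists name at most the 4 largest changes. Atp6v0a1, the genes that overlap members, and the DKO against WT value of Igf2r, which the rule names only against Tcf1 KO, were chosen after their values were seen. The members, lists and rules were chosen with earlier results of these data known. Promoter windows are RefSeq's for GRCm38.p6, and exon overlaps come from a GENCODE annotation of that assembly; neither gave coordinates for the mm9 values.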

Additional observations from a re-analysis of the deposited data

How the results depend on the processing

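No member with a call changed sign under any of the 14 alternatives of its comparison. Calls held in all 14 for 14 of 22 members in DKO against WT, 0 of 2 in Tcf1 KO against WT and 10 of 15 in DKO against Tcf1 KO. With 1 library left out at a time, the called members numbered 16 to 23 in DKO against WT (higher 9 to 12, lower 7 to 11), 0 to 3 in Tcf1 KO against WT, all higher, and 11 to 16 in DKO against Tcf1 KO (higher 5 to 8, lower 6 to 8). In Tcf1 KO against WT 0 members were called without the filter on low values and 1, Ctsl, without the variance trend. The lone library left in a group was assumed to vary like those of the other groups. Over all genes, calls in DKO against WT numbered 2213 without WT replicate 1 and 2053 without WT replicate 2, beside 3345. In Tcf1 KO against WT they were 11 without Tcf1 KO replicate 2, 12 without either WT library, 39 without the filter and 229 to 235 without a DKO library, beside 141; without Tcf1 KO replicate 1 they were 44 higher and 95 lower, beside 90 and 51. In DKO against Tcf1 KO they were 1585 and 1617 without Tcf1 KO replicates 1 and 2, beside 2599, and 1312 higher and 1271 lower under median scaling, beside 1072 and 1527. The causes were not tested. With the replicate number as a block, 24 members were called in DKO against WT, 2 in Tcf1 KO against WT and 16 in DKO against Tcf1 KO. Gaa (adjusted p = 0.0176), Atp6v1a (0.0445) and Atp6v1h (0.0462) gained a call and Gusb (0.0564) lost it in DKO against WT, and Glb1 (0.0373) gained 1 in DKO against Tcf1 KO. Same-numbered libraries deviated together at r = 0.154 (DKO and WT), 0.045 (Tcf1 KO and WT) and 0.147 (DKO and Tcf1 KO), and nothing in the labels ties the numbers to a litter or day. With 2 libraries a group and unknown depth, small differences were often not detectable.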
